A study of Mus musculus with 6 samples.

Results

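Mitosis is carried by a set of proteins that a dividing cell makes mostly in G2 and mitosis, and 47 genes for such proteins are described here: markers of proliferation, cyclins and CDK1, mitotic kinases, checkpoint, kinetochore and spindle proteins, and proteins of cytokinesis. The genes were taken by symbol from a list drawn up by known function. Their values were not the criterion, but earlier results of these data were known when the list was chosen. They are 47 of the 48587 genes in the deposited count table. All 47 passed the abundance filter, so they are also 47 of the 13166 genes tested.

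The study addressed how METTL7A1, a putative methyltransferase, affects 4T1 cells, a transplantable mouse mammary carcinoma line. Total RNA was sequenced from 3 METTL7A1 cultures and 3 mock cultures, which the labels call biological triplicates. METTL7A1 cells carried a stably transfected, FLAG-tagged full-length Mettl7a1 cDNA under a CMV promoter, and mock cells are, in the usage of the study, transfected with the empty vector. In the study's methods 4T1 transfectants were kept under 350 μg/ml G418. Whether each transfected line was a pool or 1 clone is not given in the sources used here, so the transfected cDNA and any other difference between the lines cannot be told apart.

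In textbook terms, CDK1 bound to A- and B-type cyclins drives entry into mitosis once CDC25 phosphatases have activated it. Kinetochores then attach chromosomes to spindle microtubules under the watch of the spindle assembly checkpoint, which holds back the anaphase-promoting complex (APC/C) until every chromosome is attached. APC/C then marks securin and cyclin B for destruction, separase opens the sister chromatids, and the central spindle directs cytokinesis. Many of these genes are transcribed together late in the cell cycle through CHR and CCAAT promoter elements bound by the DREAM or MuvB complexes, FOXM1, B-MYB and NF-Y.

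Library totals lay between 18386780 and 28459338 counts. Abundances below are in cpm, counts relative to the scaled size of the library, and log2 fold changes are METTL7A1 minus mock. Mettl7a1 itself stood at 383 ± 39.6 cpm in METTL7A1 and 1.35 ± 0.255 cpm in mock cells (SD, n = 3), a log2 fold change of 8.17 (SE 0.14, adjusted p = 4.89e-11). AY036118, a ribosomal repeat gene, took between 0.502% and 13.1% of a library, with the highest share in mock replicate 1 and the lowest in METTL7A1 replicate 1. All 5 epithelial markers looked for were tested, at a summed 1370 to 1720 cpm in METTL7A1 and 1200 to 1460 cpm in mock libraries. Of the other cell types, 1 of 5 fibroblast markers (Pdgfra) and 1 of 5 leukocyte markers (Cd68) passed the filter and none of 4 endothelial markers did. The fibroblast markers summed to 24.0 to 26.6 cpm in METTL7A1 against 17.5 to 19.8 cpm in mock libraries, the leukocyte markers to 11.6 to 14.1 against 4.92 to 6.32 cpm, and the endothelial markers to 1.35 to 1.40 against 0.82 to 1.09 cpm. Dcn, Lum, Cd3e, Itgam and Kdr had at most 3 counts in any library. Whether these differences have a part in the results below was not tested.

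The mitotic genes did not move as 1 block. A gene with an adjusted p under 0.05 is termed called, and 19 of the 47 were called, of which 16 were higher and 3 lower in METTL7A1 cells. The called share of 40.4% lay beside 42.1% for all genes tested. The share called higher was 34% against 21.1% of all genes, and the share called lower 6.38% against 21%. With 1 exception the changes were small. The 16 genes called higher had log2 fold changes of 0.22 to 0.49, and 46 of the 47 genes stayed within 0.5 in either direction. Psrc1, the exception, fell by 2.05 on the log2 scale and alone of the 47 passed the thresholds of the study, which 2.48% of all genes passed. These are an adjusted p under 0.01 together with a log fold change over 1.5 in size. They were applied here to edgeR values, with the log read as base 2, which the study does not state. The median log2 fold change of the 47 genes was 0.101, against -0.026 over all genes tested.

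The 28 genes that were not called had log2 fold changes between -0.19 and 0.19, and the outermost bounds of their 95% intervals were -0.38 and 0.39. Counts of the 47 genes ran from 29 to 35969 per library, and 46 of them had at least 100 counts in every library, so a low count limits the estimate for Psrc1 alone. METTL7A1 and mock libraries did not overlap for 28 of the 47 genes, against 51.6% of all genes tested. These 28 comprised all 19 called genes and 9 genes that were not called. RNA of a whole culture was measured, in which more cells in G2 or mitosis and more RNA per mitotic cell cannot be told apart.

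**Figure D1:**
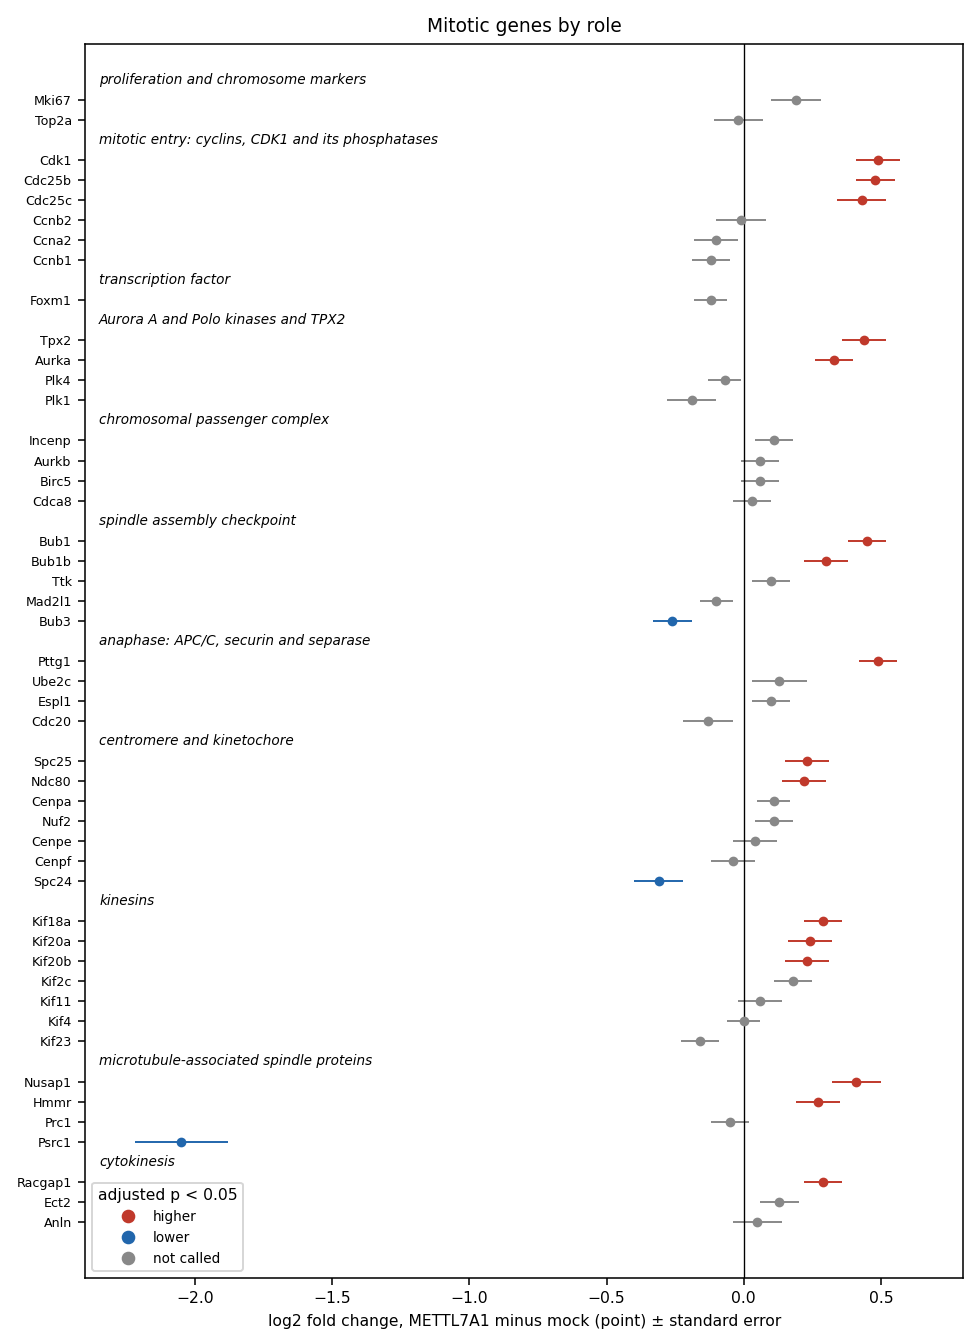
Log2 fold change (METTL7A1 minus mock, x axis) of each of the 47 mitotic genes, grouped by role (y axis). Points are edgeR estimates with their standard errors, red for genes called higher, blue for genes called lower and grey for genes not called. Psrc1 lies at -2.05 and the other 46 genes within 0.5 of 0.

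Promoter sequences are shown for the 4 called genes with which the results begin: Psrc1, which fell, Pttg1 and Cdc25b, which were called higher under every alternative tried, and Cdk1, whose neighbours on the chromosome moved as far as it did. The windows hold 250 bases before and 50 after a RefSeq start site (GRCm38.p6, the assembly of mm10) and are written 5′ to 3′ on the strand of the gene. Capitals mark matches to the CHR letters TTTGAA or TTCGAA or to the CCAAT letters, read on either strand, so that ATTGG is a CCAAT match on the opposite strand.
Psrc1, chr3:108383588-108383887, plus strand: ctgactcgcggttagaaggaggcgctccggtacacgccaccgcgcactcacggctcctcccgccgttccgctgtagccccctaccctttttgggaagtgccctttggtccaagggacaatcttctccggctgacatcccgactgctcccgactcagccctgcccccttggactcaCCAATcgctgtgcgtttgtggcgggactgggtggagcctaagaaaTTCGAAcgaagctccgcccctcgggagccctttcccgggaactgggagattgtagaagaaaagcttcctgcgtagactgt
Pttg1, chr11:43425932-43426231, minus strand: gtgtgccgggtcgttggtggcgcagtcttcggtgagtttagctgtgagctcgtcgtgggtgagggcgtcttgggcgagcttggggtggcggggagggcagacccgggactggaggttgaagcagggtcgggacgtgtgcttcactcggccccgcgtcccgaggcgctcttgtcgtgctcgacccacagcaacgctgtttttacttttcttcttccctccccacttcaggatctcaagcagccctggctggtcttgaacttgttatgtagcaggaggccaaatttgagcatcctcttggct
Cdc25b, chr2:131186698-131186997, plus strand: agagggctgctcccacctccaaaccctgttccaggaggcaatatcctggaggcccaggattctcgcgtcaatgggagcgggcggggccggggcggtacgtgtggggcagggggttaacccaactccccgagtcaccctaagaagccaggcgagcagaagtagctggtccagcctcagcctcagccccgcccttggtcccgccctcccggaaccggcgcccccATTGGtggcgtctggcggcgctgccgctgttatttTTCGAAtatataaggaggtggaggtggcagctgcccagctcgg
Cdk1, chr10:69352863-69353162, minus strand: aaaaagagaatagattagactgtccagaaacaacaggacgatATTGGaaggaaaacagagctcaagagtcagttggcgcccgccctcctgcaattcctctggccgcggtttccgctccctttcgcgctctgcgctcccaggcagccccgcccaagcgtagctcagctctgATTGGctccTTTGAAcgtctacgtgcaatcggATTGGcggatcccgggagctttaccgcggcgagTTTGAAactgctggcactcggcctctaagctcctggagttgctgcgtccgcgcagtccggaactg
The Psrc1 window, whose start site lies next to the start of the gene model of the count table, holds CHR letters 30 bases before the start site and CCAAT letters further upstream. RefSeq gives Psrc1 a second, more upstream start (window chr3:108383554-108383853), which places the same CHR letters just after the start and adds a second CCAAT match. In the Cdc25b window the CHR letters lie just after the start with CCAAT letters upstream, and the Cdk1 window holds 2 CHR and 3 CCAAT matches. No match lies in the Pttg1 window, although Pttg1 was the gene with the largest rise, and the gene model of the count table begins upstream of this window. Promoters in the RefSeq table were found for 39 of the 47 genes, in 43 windows. CHR letters were present in 79.1% of these windows and in 19.2% of all 32851 promoter windows in the table, CCAAT letters in 74.4% against 37.4%, and both in 69.8% against 7.52%. CHR letters were in 76.9% of the 13 windows of genes called higher and in 76.9% of the 26 windows of genes not called. CCAAT letters were in 61.5% against 76.9% of these windows and both in 61.5% against 69.2%, differences that were not tested. A match is a description of the letters and not of a bound site.

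**Figure D2:**
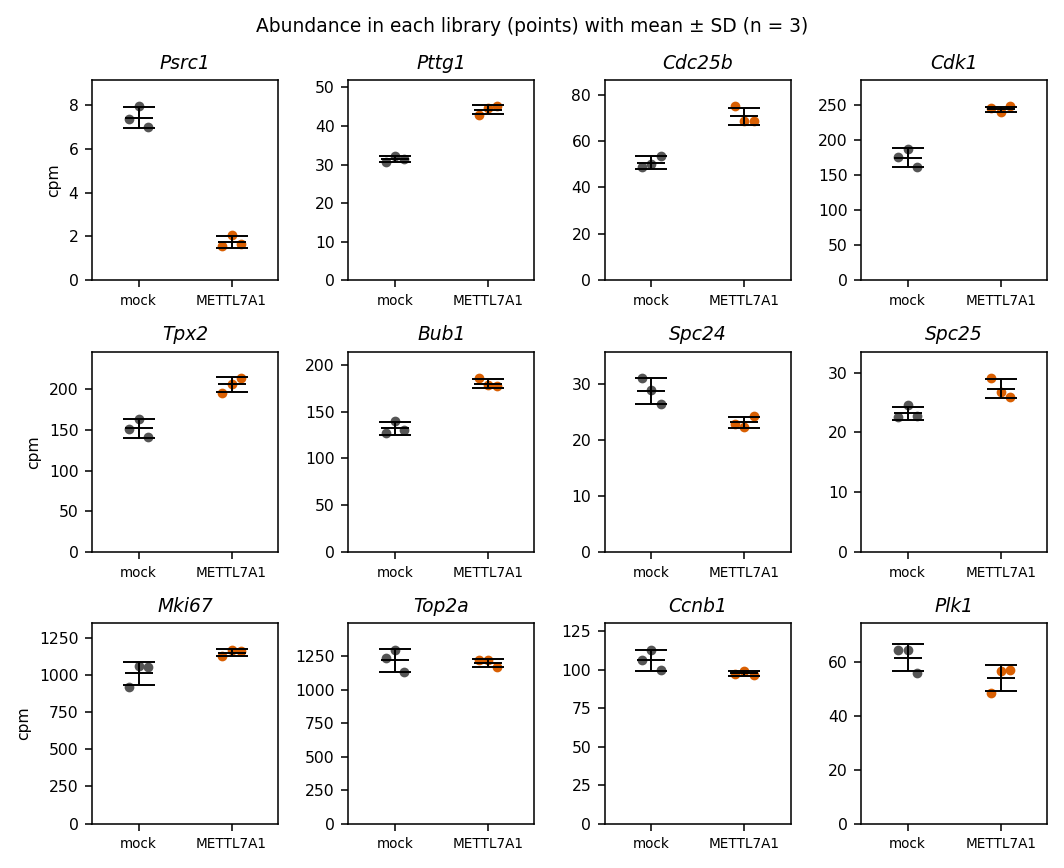
Abundance (cpm, y axis, starting at 0) of 12 mitotic genes in the mock and METTL7A1 libraries (x axis), with each library as a point and the mean ± SD (n = 3) as a bar. Psrc1 falls from 7.4 to 1.76 cpm, Pttg1, Cdc25b, Cdk1, Tpx2 and Bub1 lie higher in all 3 METTL7A1 libraries, and the groups overlap for Top2a and Plk1.

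The general markers of dividing cells gave no call. Mki67, which encodes the Ki-67 protein that coats mitotic chromosomes (chr7:135689784-135716361, minus strand), stood at 1130, 1170 and 1160 cpm in METTL7A1 replicates 1 to 3 and at 921, 1060 and 1050 cpm in mock replicates 1 to 3. The METTL7A1 libraries were above all mock libraries, with mock replicate 1 the lowest, and the log2 fold change was 0.19 (SE 0.09, 95% interval -0.01 to 0.39, adjusted p = 0.121). Mki67 passed the threshold in DESeq2, with the same log2 fold change (adjusted p = 0.0304), and without the 20 most abundant genes of the table, with a log2 fold change of 0.23. Top2a, topoisomerase II alpha, which untangles replicated chromosomes (chr11:98992943-99024189, minus strand), stood at 1220, 1220 and 1170 cpm in METTL7A1 and at 1240, 1300 and 1130 cpm in mock libraries. Here the groups overlapped, and the log2 fold change was -0.02 (SE 0.09, 95% interval -0.23 to 0.18, adjusted p = 0.86).

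Per kilobase of exon, Top2a was the most abundant of the 47 genes in mock cells, at 234 cpm per kb, followed by Anln at 127 and Mki67 at 101 cpm per kb. The median over the 47 genes was 37 cpm per kb. Psrc1 was the least abundant at 4.26 cpm per kb, below Mad2l1 and Cdc25c, each at 11.4 cpm per kb. The gene with the largest change was thus the lowest of the set. None of the 6 most abundant per kilobase (Top2a, Anln, Mki67, Ccna2, Cdc20 and Cenpa) was called, but Cdk1, at rank 7 with 58.7 cpm per kb, was called higher.

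Among the genes of mitotic entry, the kinase and both phosphatases rose and the cyclins were not called. Of the 6, 3 were called higher and none lower, beside 21.1% and 21% of all genes. Cdk1, the kinase that drives mitosis (chr10:69336635-69352938, minus strand), stood at 245, 240 and 248 cpm in METTL7A1 and at 176, 187 and 161 cpm in mock libraries. Every METTL7A1 library lay above every mock library. The mean rose from 175 ± 13.2 to 244 ± 3.67 cpm (SD, n = 3), a log2 fold change of 0.49 (SE 0.08, adjusted p = 0.00046). Cdc25b, the phosphatase that starts the activation of CDK1 at the centrosome (chr2:131186949-131198497, plus strand), stood at 74.9, 68.8 and 68.4 cpm in METTL7A1 and at 48.6, 49.9 and 53.7 cpm in mock libraries. The groups were again separate, with a rise from 50.7 ± 2.67 to 70.7 ± 3.64 cpm (SD, n = 3) and a log2 fold change of 0.48 (SE 0.07, adjusted p = 0.000367). Cdc25c, a second CDK1 phosphatase, rose from 22.1 ± 1.68 to 29.7 ± 1.98 cpm (SD, n = 3), a log2 fold change of 0.43 (SE 0.09, adjusted p = 0.00272).

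The cyclin partners of CDK1 gave lower or equal means in METTL7A1 cells, none of them called. Ccnb1, cyclin B1 (chr13:100778650-100786570, minus strand), stood at 97.1, 99.4 and 96.5 cpm in METTL7A1 and at 106, 113 and 99.6 cpm in mock libraries. The groups did not overlap by a narrow margin, and the log2 fold change was -0.12 (SE 0.07, 95% interval -0.28 to 0.03, adjusted p = 0.177). Of its exonic 31-base sequences, 27.8% also occur in other genes, mostly a pseudogene copy, so reads could be lost or shared there, and the same holds for 26.7% in Cdc20 and 18.7% in Plk1. Such sequences, looked for on both strands, made up 25.3% in Ube2c, mostly shared with Tnnc2. Among called genes the shares were largest in Kif20a (26.7%, all with Cdc23) and Cdc25c (13.3%). Ccna2 and Ccnb2, cyclins A2 and B2, had log2 fold changes of -0.10 and -0.01, with adjusted p of 0.369 and 0.955. Foxm1, a transcription factor for many of these genes (chr6:128362967-128376146, plus strand), stood at 103, 99.5 and 98.2 cpm in METTL7A1 and at 108, 113 and 105 cpm in mock libraries. All METTL7A1 values were below all mock values, and the log2 fold change of -0.12 (SE 0.06, 95% interval -0.26 to 0.02, adjusted p = 0.162) did not pass the test.

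Of the Aurora A and Polo kinase group, Aurora A and its activator were higher and the Polo kinases were not called. Thus 2 of 4 were higher and 0 lower, beside 21.1% and 21% of all genes. Tpx2, which targets Aurora A to the spindle and activates it (chr2:152847964-152895321, plus strand), stood at 195, 207 and 214 cpm in METTL7A1 and at 151, 163 and 141 cpm in mock libraries. The 2 groups were far apart next to their spread, with means of 206 ± 9.5 and 152 ± 11.4 cpm (SD, n = 3) and a log2 fold change of 0.44 (SE 0.08, adjusted p = 0.00104). Aurka, Aurora A itself, a kinase of spindle poles (chr2:172356190-172370535, minus strand), stood at 88.3, 93.5 and 96.9 cpm in METTL7A1 and at 74.1, 79.1 and 69 cpm in mock libraries. It did not overlap either and rose from 74.1 ± 5.04 to 92.9 ± 4.31 cpm (SD, n = 3), a log2 fold change of 0.33 (SE 0.07, adjusted p = 0.00445). Plk1, the Polo kinase that acts from mitotic entry to cytokinesis (chr7:122159439-122169873, plus strand), stood at 48.5, 56.5 and 56.9 cpm in METTL7A1 and at 64.5, 64.3 and 55.7 cpm in mock libraries. Mock replicate 3 lay among the METTL7A1 values, and the log2 fold change was -0.19 (SE 0.09, 95% interval -0.38 to 0.01, adjusted p = 0.109). Without that library Plk1 was called lower, at -0.24 (adjusted p = 0.0377). Plk4, the kinase of centriole duplication, had a log2 fold change of -0.07 (adjusted p = 0.428).

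None of the 4 genes of the chromosomal passenger complex, which corrects faulty attachments of kinetochores, was called, beside 42.1% of all genes. Aurkb, its Aurora B kinase (chr11:69045647-69051664, plus strand), stood at 68.9, 74.3 and 73 cpm in METTL7A1 and at 71.8, 71.6 and 63.7 cpm in mock libraries. The groups overlapped, and the log2 fold change was 0.06 (SE 0.07, 95% interval -0.10 to 0.22, adjusted p = 0.514). Birc5 (survivin), Incenp (the scaffold) and Cdca8 (borealin) had log2 fold changes of 0.06, 0.11 and 0.03. A change of Aurkb, Birc5, Incenp or Cdca8 beyond a log2 fold change of 0.26 lay outside each gene's 95% interval.

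The spindle assembly checkpoint was divided, with 2 of 5 genes higher and 1 lower, beside 21.1% and 21% of all genes. Bub1, a kinase that brings other checkpoint proteins to kinetochores (chr2:127801122-127831865, minus strand), stood at 186, 178 and 177 cpm in METTL7A1 and at 127, 140 and 130 cpm in mock libraries. Its groups did not overlap, and it rose from 132 ± 6.78 to 180 ± 5.07 cpm (SD, n = 3), a log2 fold change of 0.45 (SE 0.07, adjusted p = 0.000455). Bub1b, which encodes BUBR1, a part of the complex that inhibits APC/C (chr2:118598211-118641591, plus strand), stood at 158, 161 and 167 cpm in METTL7A1 and at 136, 139 and 120 cpm in mock libraries. The groups were separate, with a log2 fold change of 0.30 (SE 0.08, adjusted p = 0.00823). Bub3, the WD-repeat partner that carries BUB1 and BUBR1 to kinetochores, went the other way, from 95.4 ± 6.12 to 79.9 ± 1.68 cpm (SD, n = 3), a log2 fold change of -0.26 (SE 0.07, adjusted p = 0.0125). The call for Bub3 was lost without METTL7A1 replicate 2 (log2 fold change -0.25) and without mock replicate 2 (-0.21), with adjusted p of at most 0.0531, and with no abundance filter (-0.22, adjusted p = 0.0631). Mad2l1, which encodes the APC/C inhibitor MAD2, and Ttk, the MPS1 kinase at the top of the checkpoint, had log2 fold changes of -0.10 and 0.10 (adjusted p = 0.233 and 0.309).

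Of the 4 anaphase genes only securin was called, beside 42.1% of all genes. Pttg1, securin, the inhibitor that holds separase in check until anaphase (chr11:43420250-43426251, minus strand), stood at 42.9, 44.8 and 45.1 cpm in METTL7A1 and at 30.7, 32.2 and 31.4 cpm in mock libraries. The spread within each group was small next to the gap between them. The mean rose from 31.4 ± 0.756 to 44.2 ± 1.17 cpm (SD, n = 3), a log2 fold change of 0.49 (SE 0.07, adjusted p = 0.000218). Espl1, separase, had a log2 fold change of 0.10 (adjusted p = 0.279). Cdc20, the activator of APC/C in mitosis, and Ube2c, the E2 enzyme that works with it, had log2 fold changes of -0.13 and 0.13 (adjusted p = 0.255 and 0.344). Without mock replicate 3, Cdc20 was called lower (log2 fold change -0.21, adjusted p = 0.0339).

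At the centromere and kinetochore 2 of 7 genes were called higher and 1 lower, all by small amounts, beside 21.1% and 21% of all genes. The calls fell within the NDC80 complex, which binds microtubule ends and is built of NDC80, NUF2, SPC24 and SPC25, and its members did not move together. Spc24 (chr9:21755442-21760286, minus strand) stood at 22.8, 22.3 and 24.2 cpm in METTL7A1 and at 31, 28.8 and 26.3 cpm in mock libraries. All METTL7A1 values were lower, with a log2 fold change of -0.31 (SE 0.09, adjusted p = 0.0137). Spc25, its direct binding partner (chr2:69193895-69206194, minus strand), stood at 29.1, 26.8 and 26 cpm in METTL7A1 and at 22.6, 24.5 and 22.7 cpm in mock libraries. Here all METTL7A1 values were higher, with a log2 fold change of 0.23 (SE 0.08, adjusted p = 0.0427). Ndc80 rose from 47.1 ± 4.88 to 55.1 ± 1.75 cpm (SD, n = 3), a log2 fold change of 0.22 (SE 0.08, adjusted p = 0.047), while Nuf2 had a log2 fold change of 0.11 (adjusted p = 0.229).

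These 3 kinetochore calls were marginal and were lost on leaving out any of 2 (Spc24) or 5 (Spc25 and Ndc80) libraries. Spc24 lost its call without METTL7A1 replicate 2 (log2 fold change -0.28) or mock replicate 1 (-0.24), with adjusted p of at most 0.0685. Spc25 lost it without METTL7A1 replicate 1 (0.19) or 2 (0.24), and on leaving out mock replicate 1 (0.22), 2 (0.27) or 3 (0.22), in DESeq2 (0.23) and with no abundance filter (0.26). Ndc80 lost it without METTL7A1 replicate 1 (0.22), 2 (0.21) or 3 (0.26), and on leaving out mock replicate 1 (0.18) or 3 (0.21). Cenpa, the histone variant that marks centromeres, Cenpe, a kinesin that carries chromosomes to the spindle middle, and Cenpf, a large outer kinetochore protein, had log2 fold changes of 0.11, 0.04 and -0.04, none called.

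Of 7 kinesins, motor proteins that move along or take apart microtubules, 3 were called higher and none lower, beside 21.1% and 21% of all genes. Kif18a, which shortens kinetochore microtubules (chr2:109280738-109341747, plus strand), stood at 65.3, 62.2 and 59.2 cpm in METTL7A1 and at 50.1, 53.3 and 49.5 cpm in mock libraries. Its groups were separate, with a log2 fold change of 0.29 (SE 0.07, adjusted p = 0.00671). Kif20b, a kinesin of the late spindle (chr19:34922358-34975731, plus strand), stood at 326, 295 and 291 cpm in METTL7A1 and at 255, 252 and 270 cpm in mock libraries. METTL7A1 replicate 1 was the highest, no libraries overlapped, and the log2 fold change was 0.23 (SE 0.08, adjusted p = 0.0316). Kif20a, a motor of the central spindle, rose from 145 ± 14.8 to 172 ± 0.995 cpm (SD, n = 3), a log2 fold change of 0.24 (SE 0.08, adjusted p = 0.0333). Its exons overlap those of Cdc23 on the opposite strand over 2518 bases.

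The calls for both KIF20 genes were marginal too, each lost on leaving out any of 4 libraries. Kif20b lost its call without METTL7A1 replicate 1 (log2 fold change 0.19) or 2 (0.25), and on leaving out mock replicate 1 (0.23) or 2 (0.21). Kif20a lost it without METTL7A1 replicate 2 (0.24) or 3 (0.25), and on leaving out mock replicate 1 (0.28) or 3 (0.17). Kif2c, a kinesin that takes microtubules apart at centromeres, lay just outside the threshold at a log2 fold change of 0.18 (SE 0.07, adjusted p = 0.0521). It was called higher without METTL7A1 replicate 3 (0.22) and under DESeq2 or other scalings of the libraries. Kif11 (Eg5, which pushes spindle poles apart), Kif23 (MKLP1 of the central spindle) and Kif4 (a chromokinesin) had log2 fold changes of 0.06, -0.16 and 0, with adjusted p of 0.579, 0.0882 and 0.99.

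The microtubule-associated spindle proteins held the largest change of the 47 genes. Psrc1 encodes a proline- and serine-rich protein that binds spindle microtubules (chr3:108383839-108388231, plus strand). It had 29, 61 and 41 counts in METTL7A1 replicates 1 to 3, or 1.56, 2.07 and 1.66 cpm, and 134, 192 and 173 counts in mock replicates 1 to 3, or 7.33, 7.92 and 6.96 cpm. The lowest mock library thus held over 3 times the cpm of the highest METTL7A1 library. The mean fell from 7.4 ± 0.484 to 1.76 ± 0.266 cpm (SD, n = 3), a log2 fold change of -2.05 (SE 0.17, 95% interval -2.42 to -1.68, adjusted p = 5.55e-06). Its estimate stayed between -2.19 and -1.97 in all 15 alternatives, with adjusted p of at most 0.000143. The 40 abundant genes nearest to it on the chromosome had a median log2 fold change of -0.08.

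Nusap1, which bundles and anchors spindle microtubules near chromatin (chr2:119618298-119651244, plus strand), stood at 66.2, 78.9 and 77.6 cpm in METTL7A1 and at 51.9, 61.3 and 54.9 cpm in mock libraries. All METTL7A1 libraries were higher, with a log2 fold change of 0.41 (SE 0.09, adjusted p = 0.00375). Hmmr, a hyaluronan receptor that also works at spindle poles, rose from 162 ± 12.3 to 195 ± 6.09 cpm (SD, n = 3), a log2 fold change of 0.27 (SE 0.08, adjusted p = 0.0152). Hmmr lost its call without METTL7A1 replicate 2 (0.26) or mock replicate 1 (0.23). Prc1, which cross-links the central spindle, had a log2 fold change of -0.05 (adjusted p = 0.558).

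Of the 3 cytokinesis genes, 1 was called, beside 42.1% of all genes. Racgap1, a subunit of the centralspindlin complex (chr15:99620496-99651656, minus strand), stood at 133, 136 and 142 cpm in METTL7A1 and at 117, 116 and 104 cpm in mock libraries. Its groups did not overlap, and the log2 fold change was 0.29 (SE 0.07, adjusted p = 0.00756). Kif23, which forms centralspindlin with RACGAP1, was not called (log2 fold change -0.16). Ect2, the exchange factor that RACGAP1 recruits to the cell middle, and Anln, anillin of the contractile ring, had log2 fold changes of 0.13 and 0.05 (adjusted p = 0.145 and 0.676).

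Seen by library, the 47 genes summed to 8822, 8856 and 8813 cpm in METTL7A1 and to 8135, 8668 and 8019 cpm in mock replicates 1 to 3. METTL7A1 libraries lay close together and mock replicate 2 lay nearest to them. In mock replicate 2, 42 of the 47 genes were above the mock mean, against 18 in mock replicate 1 and 12 in mock replicate 3. In the METTL7A1 libraries 22, 23 and 24 genes were above the mean of their own group. Relative to the mock mean, the median of the 47 genes in log2 cpm was 0.117, 0.088 and 0.086 in METTL7A1 and -0.007, 0.065 and -0.046 in mock libraries. The smallest gap between the groups was thus 0.086 against 0.065, in METTL7A1 replicate 3 and mock replicate 2. Over all genes tested the same medians were 0.003, -0.023 and -0.024 in METTL7A1 and 0.004, 0.023 and -0.031 in mock libraries. Mock replicate 2 was thus the highest and mock replicate 3 the lowest mock library there too. The number of genes called ran from 12 (without METTL7A1 replicate 2) to 18 when 1 library was left out, the number higher from 11 to 15, and the number lower from 1 (without METTL7A1 replicate 2) to 5 (without mock replicate 3). Without METTL7A1 replicate 2 the called share was 25.5% of the 47 genes and 29.1% of all genes tested, and without mock replicate 3 it was 38.3% and 44.5%.

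**Figure D3:**
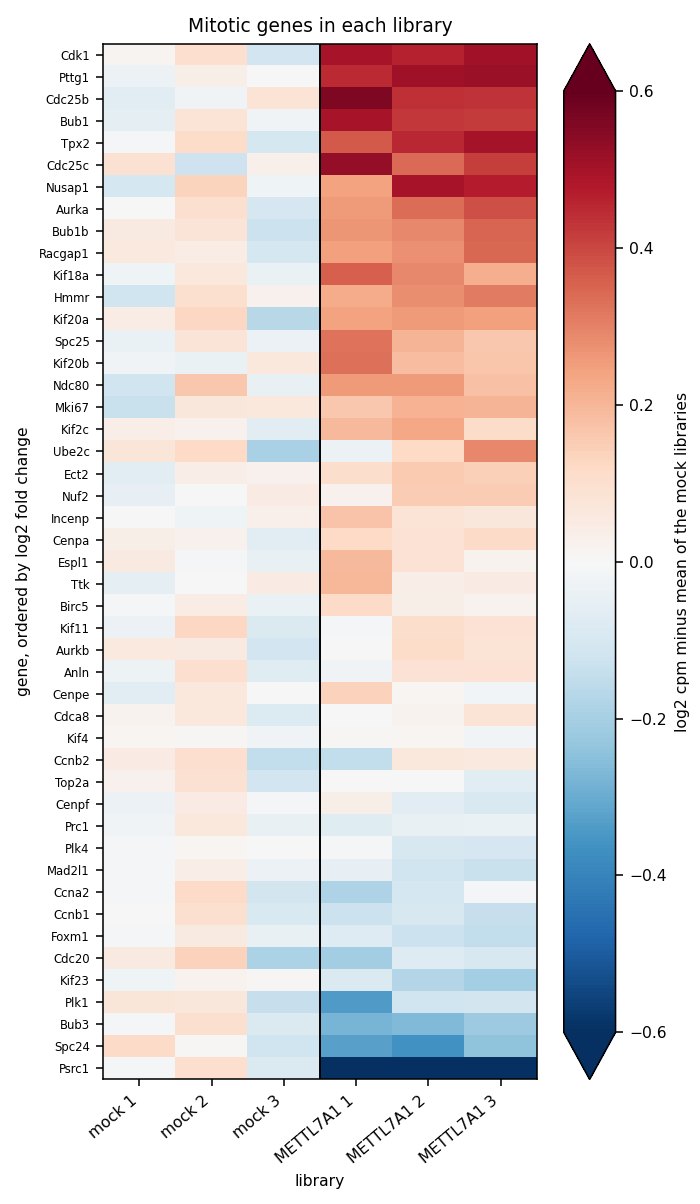
Log2 cpm of each of the 47 mitotic genes (rows, ordered by log2 fold change) minus the mean of the mock libraries, for the 3 mock and 3 METTL7A1 libraries (columns), with red above and blue below the mock mean and the color scale ending at 0.6 in both directions. Most rows are pale, mock replicate 2 is redder than the other mock libraries, and Psrc1 in the bottom row is blue in all 3 METTL7A1 libraries.

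Many of the genes called higher lay where other genes of the chromosome were higher too. Of the 16 genes called higher, 8 lie on chromosome 2 (Cdc25b, Aurka, Tpx2, Bub1, Bub1b, Spc25, Kif18a and Nusap1), and 8 of the 9 mitotic genes on that chromosome were called higher, all but Ube2c. Of all 1038 genes tested on chromosome 2, 32% were called higher, and their median log2 fold change was 0.13. Both genes on chromosome 18, Cdc25c and Kif20a, were called higher, where 61.4% of 316 genes were higher with a median of 0.35. Cdk1 on chromosome 10 shared its direction with 51.2% of 584 genes there, with a median of 0.27. On chromosome 15, Racgap1 was higher and Espl1 was not, among 486 genes of which 37.2% were higher.

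The same was seen among near neighbours. For each gene, the 40 nearest abundant genes on its chromosome were taken and the median of their log2 fold changes computed. This neighbor median was over 0.1 for 12 of the 16 genes called higher and under 0 for 2 of them (Ndc80 and Hmmr). Among the 28 genes not called, it was over 0.1 for 2 (Ube2c and Espl1) and under 0 for 20. Over the 47 genes Spearman's rank correlation between a gene's log2 fold change and its neighbor median was 0.70. It is given as a description, since nearby genes share neighbors and all genes share the same 6 libraries. These counts and the correlation were not taken over all genes tested. Whether they are particular to the mitotic genes was therefore not tested. Pttg1 and Psrc1 stood apart from their surroundings, with neighbor medians of 0.00 and -0.08. Cdk1 did not, with a neighbor median of 0.47 beside its own 0.49. Of the other mitotic entry genes, Cdc25b and Cdc25c, called higher, had neighbor medians of 0.26 and 0.32. Those of Ccna2, Ccnb1 and Ccnb2, not called, were -0.01, -0.11 and -0.16.

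Measured against the neighbor median in place of 0, 8 of the 47 genes were called, beside 31.5% of all genes. Higher were Pttg1 (log2 difference 0.49), Hmmr (0.31), Ndc80 (0.29), Kif2c (0.26), Cdc25b (0.21) and Cenpa (0.20), beside 18.1% of all genes. Lower were Psrc1 (-1.97) and Espl1 (-0.23), beside 13.4% of all genes. The neighbor median entered this fit as a fixed value, so its own error is not part of the adjusted p. Nearest the threshold were Cdc25b (adjusted p = 0.0417), Espl1 (0.0314) and Cenpa (0.0313). Cdk1 came to 0.01, Tpx2 to 0.21, Bub1 to 0.16, Aurka to 0.18, Nusap1 to 0.13, Racgap1 to 0.05 and Kif18a to 0.12, none of them called. The calls for Cdc25c, Bub1b, Bub3, Spc24, Spc25, Kif20a and Kif20b were lost as well. Of the 19 genes called against 0, Psrc1, Pttg1 and Cdc25b kept their call in all 15 alternatives, and 12 kept it in every alternative other than the neighbor median.

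**Figure D4:**
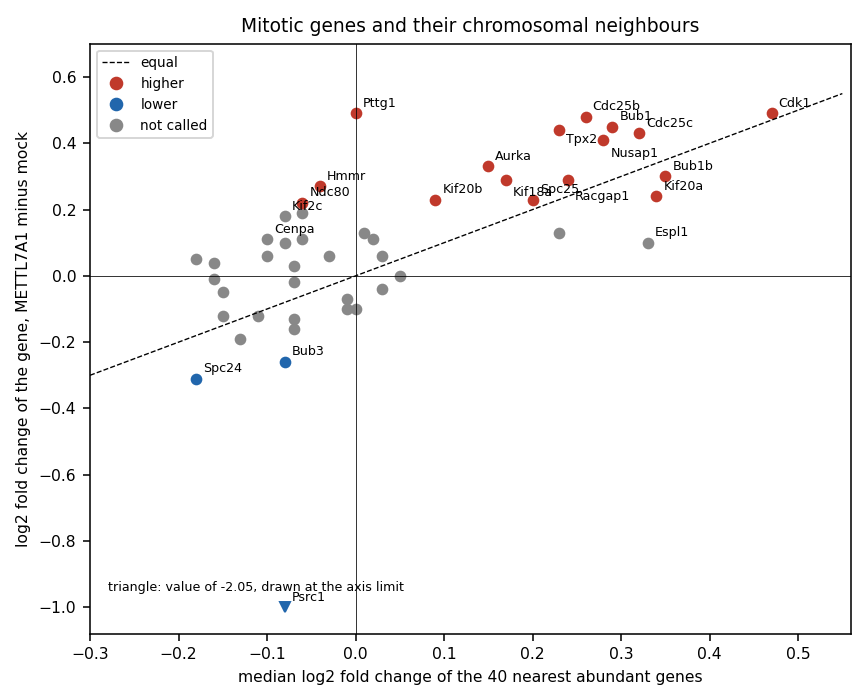
Log2 fold change of each of the 47 mitotic genes (y axis) against the median of the 40 nearest abundant genes on its chromosome (x axis), with red for called higher, blue for called lower and grey for not called, and a dashed line where both are equal. Psrc1, at -2.05, is drawn as a triangle at the axis limit. Most red points lie to the right of 0, while Pttg1 lies at 0.49 over a neighbor median of 0.00.

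Other genes of the same pathways were taken from lists made by function. Of 110 other mitotic genes, 44 (40%) were called, beside 42.1% of all genes. The share higher was 21.8% (24 genes) and the share lower 18.2% (20 genes), beside 21.1% and 21% of all genes. The median log2 fold change of the 110 was 0.014. Among them, the smallest p belonged to Cenpw, a centromere histone-fold protein, with a log2 fold change of -0.94 (SE 0.09, adjusted p = 1.54e-05), next to a neighbor median of -0.50. Parpbp, a regulator of homologous recombination (0.67), Kifc1, a minus-end kinesin that focuses spindle poles (0.56), and Zwint, a kinetochore scaffold (0.53), were higher, while Trip13, an ATPase that recycles MAD2 (-0.63), was lower. Neighbor medians were 0.44 for Parpbp, 0.25 for Kifc1, 0.33 for Zwint and -0.50 for Trip13. Smc4, a condensin subunit (log2 fold change -0.06), and Anapc1, an APC/C subunit (0.04), the uncalled genes of this list with the highest cpm (not corrected for length), were not called.

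Genes of DNA replication, which act in S phase before mitosis, leaned to the other side. Of 50 such genes 20 (40%) were called, 4 (8%) higher and 16 (32%) lower, beside 21.1% and 21% of all genes, with a median log2 fold change of -0.15. Rrm2, a subunit of ribonucleotide reductase, fell by 0.61, Pole2 of DNA polymerase epsilon by 0.60, Mcm5 of the replicative helicase by 0.50, Cdc6, which loads that helicase, by 0.43, and Rfc5 of the clamp loader by 0.39 on the log2 scale. Rrm2 and Pole2 had neighbor medians of -0.50 and -0.49, Mcm5 of -0.22, Rfc5 of -0.12 and Cdc6 of -0.06. Mcm6 of the same helicase (-0.09) and Pole (-0.20) were not called. The called number dropped to 12 (24%) without METTL7A1 replicate 2, mock replicate 1 or mock replicate 2. In these fits 29.1%, 32.7% and 35.3% of all genes were called. Against the neighbor median the number was 10 (20%), beside 31.5% of all genes. The library medians of these genes, relative to the mock mean, were -0.137, -0.134 and -0.11 in METTL7A1 and 0.029, 0.043 and -0.086 in mock libraries. Mock replicate 3 lay close to the METTL7A1 libraries.

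Of 23 regulators that act on mitotic and other cell cycle promoters, 13 (56.5%) were called, beside 42.1% of all genes. The share higher was 39.1% (9 genes) and the share lower 17.4% (4 genes), beside 21.1% and 21% of all genes. The median log2 fold change of the 23 was 0.141. Without METTL7A1 replicate 2 the number of regulators called dropped to 7 (30.4%), and the called share of all genes to 29.1%. Nfyb, a subunit of the CCAAT-binding factor NF-Y, was higher by 0.67 (SE 0.09, adjusted p = 0.000128), beside a neighbor median of 0.41. The other NF-Y subunits were called lower, Nfya at -0.27 (adjusted p = 0.0107) and Nfyc at -0.33 (adjusted p = 0.00868). Their neighbor medians were -0.05 and -0.07, so the subunits did not move together. E2f1, an activator of S phase genes (0.41), E2f8, a repressor of E2F targets (0.34), and Rbl2, the p130 pocket protein of DREAM (0.37), were higher. E2f4, the E2F of DREAM, was lower (-0.42, adjusted p = 0.000339). Neighbor medians were 0.20 for E2f1, -0.09 for E2f8, -0.12 for Rbl2 and -0.12 for E2f4. Tfdp1, an E2F partner, and Rbbp4, a MuvB subunit, the uncalled regulators with the highest cpm (not corrected for length), were at -0.06 and 0.01.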

How the data were processed

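Total RNA of 3 METTL7A1 and 3 mock 4T1 cultures was sequenced as stranded libraries depleted of ribosomal RNA. Per the labels and the methods of the study, reads were trimmed with BBDuk, aligned to mm10 with STAR 2.5.3a and assigned to Ensembl genes with featureCounts, and the authors deposited raw counts per gene without normalization. How reads mapping to several places or strand were treated is not given in the sources used here. AY036118 had more counts than Gm42418, which contains it on the opposite strand, in every library, so counting was by strand. Among the 47 genes, only Foxm1 overlaps exons of others on the same strand in the gene models of the count table, and these had at most 8 counts.

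The test was the quasi-likelihood F test of edgeR 4.0.16 (R 4.3.3), two-sided and with no covariate, between METTL7A1 and mock, after TMM scaling and on the 13166 genes that reached 1 cpm in at least 3 libraries. Every adjusted p is a Benjamini-Hochberg value over all 13166 genes from that test unless another tool or an alternative is named. For an alternative it is over the genes tested there. These were 12898 to 13021 genes when 1 library was left out and 28601 with no abundance filter. The procedure was first tested on simulated data. Groups were taken from sample titles. Alternatives were RLE and upper quartile scaling, removal of the 20 most abundant genes, no abundance filter, at least 10 counts in every library, DESeq2 1.42.0, limma's voom (3.58.1), a block for the replicate number, leaving out 1 library at a time, and an offset, the median change in log2 of the 40 genes nearest on the chromosome with an average log2 cpm over 2.

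The 47 genes, the other lists and the alternatives were chosen with earlier results of these data known. Values in every library are given for genes past the study thresholds, for up to 2 called genes of smallest p in each role, and for Mki67, Top2a, Cdk1, Ccnb1, Aurkb, Plk1 and Foxm1. Of each other list at most 5 called genes of smallest p and 2 uncalled genes of largest mean cpm, not corrected for length, are named. Nfya and Nfyc were added to these after their values were seen, as the partners of Nfyb. Levels of the 47 genes were compared with each other per kilobase of exon. Promoters came from a RefSeq table, and sequences of 31 bases shared between genes were counted in GENCODE M21 transcripts.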

Additional observations from a re-analysis of the deposited data

How the results depend on the processing

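Leaving out 1 library gave 12 to 18 of the 47 mitotic genes called, 11 to 15 higher and 1 to 5 lower, a median log2 fold change of 0.086 to 0.108, 30 to 47 of the other mitotic genes, 12 to 22 of the replication genes and 7 to 13 of the regulators called, while 29.1% to 44.5% of all genes were called. The other scalings, filters and tools gave 17 (no abundance filter) to 21 (without the 20 most abundant genes) of the 47 called. Removal of those 20 genes moved the median of the 47 to 0.138, and that of all genes from -0.026 to 0.011. With no abundance filter 12 replication genes (24%) and 20.9% of all genes were called. Against the neighbor median, 8 of the 47 genes were called and 6 of them were higher. Of the other mitotic genes 28 were called and of the replication genes 10, beside 31.5% of all genes. In values rounded to 2 decimals, signs turned for 8 of the 47, among them Bub1b (-0.05) and Kif20a (-0.09), called against 0, and Espl1 (-0.23), called against the neighbor median. The remaining 5 were called in neither. Kif4 is not counted, since its log2 fold change, slightly positive, rounds to 0. It came to -0.05 against the neighbor median and was called in neither. The cause of these shifts was not tested.

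Whether the replicate numbers of the labels pair the libraries could not be decided. Deviations of same-numbered libraries correlated at -0.15, 0.20 and -0.37, which differ in sign, and differently numbered libraries were not compared. With the replicate number as a block, 15 of the 47 genes were called, 12 higher and 3 lower, with 35 other mitotic genes, 15 replication genes, 11 regulators and 4810 of all genes. Ndc80 (adjusted p = 0.0642), Spc25 (0.0866), Kif20a (0.0509) and Kif20b (0.0696) lost their call.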
